A study of Mus musculus with 18 samples.

Results

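Livers of EtOH-fed mice without *Apoe* were compared with livers of EtOH-fed WT mice. The comparison holds 4 EtOH-fed *Apoe* KO mice, numbered 1, 2, 4 and 5, and 5 EtOH-fed WT mice, together 9 of the 18 mice of the series. They were chosen by their labels alone. The other 9 mice, 5 *Apoe* KO and 4 WT, were pair-fed. *Apoe* KO mice carry a whole-body disruption of the gene, in a purchased C57BL/6J-background line, and the WT animals were purchased C57BL/6J mice and not littermates. All mice were 10 to 12 weeks old. They had 5 days of acclimation to liquid food, and the EtOH-fed mice then drank 5% (v/v) ethanol for 10 days, a chronic feeding that ends with a binge. The binge was a gavage of 5 g/kg ethanol on day 11, and liver was taken 9 h later. Pair-fed mice received an isocaloric diet and 9 g/kg dextrin maltose. The question of the comparison is what the loss of ApoE changes in a liver exposed to alcohol.

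ApoE is a secreted apolipoprotein made mainly by hepatocytes and macrophages, and it carries remnant lipoproteins to their receptors on the liver. Hepatocytes also export albumin, acute-phase proteins and complement through the endoplasmic reticulum (ER), where chaperones fold them. The unfolded protein response raises those chaperones when folding falls behind. Ethanol is oxidised in the same hepatocytes, and alcohol-fed liver is known for fat droplets, for activated Kupffer cells (the resident macrophages) and, with time, for collagen deposition.

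The deposited values are polyA RNA-seq read counts per gene, scaled to a nearly common total (32267493 to 32292618 per mouse) and rounded, for 15052 genes. The spacing of low values gave estimates of the reads behind them. In units of 1e6 reads, these were 45.8, 13.5, 7.88 and 8.39 in *Apoe* KO mice 1, 2, 4 and 5. In WT mice 1, 3 and 4 they were 52.2, 39.5 and 24.6, and mice 2 and 5 could not be resolved. The other 3 *Apoe* KO libraries were thus shallower than every WT library that could be sized, and differences of a few units in low genes were not detectable there.

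*Apoe*, on chromosome 7 at 19696109 to 19699188 in GRCm38 (GENCODE M21), was read first. The 5 EtOH-fed WT mice had between 611230 and 791833 scaled reads, and *Apoe* KO mice 1, 2, 4 and 5 had 12041, 57963, 61572 and 48574. The groups lay far apart, with a log2 fold change of −4.21 (SE 0.38, limma adjusted p = 0.00014), and the reads that remain in the KO mice do not tell whether a protein is made. Among pair-fed KO mice, numbers 2 and 5 had 11504 and 8586. These mice and EtOH-fed KO mouse 1 had the deepest KO libraries (67.6, 44.3 and 45.8 in units of 1e6 reads), and a link to depth was not tested. *Apoe* KO mouse 1 was the lowest of the EtOH-fed KO mice in *Apoe*, and it also stood apart from them in sex-linked transcripts. All 18 mice are labelled female, yet the X-inactivation transcript *Xist* was 826 in this library and 17186 to 27076 in the other 8 EtOH-fed mice. The Y-linked helicase *Ddx3y* was 1077 there against 2 to 57 in the others, so that this library goes against its label. The main counts are therefore given with and without it, and so are most list counts that it moved.

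By limma on log2(value + 1), 639 genes were higher (4.25% of the 15052 tested) and 67 lower (0.445%) in the *Apoe* KO than in the WT livers of the EtOH diet at an adjusted p under 0.05. Of these, 346 rose and 32 fell by more than 1 on the log2 scale. All KO values lay above all WT values in 7.12% of genes and below them in 1.0%. The median log2 difference of all genes was 0.11 and moved to −0.02 with median-of-ratios scaling. With that scaling 380 genes were higher and 126 lower, so the share of higher calls was 75.1% in place of 90.5%. Without *Apoe* KO mouse 1 there were 565 higher and 55 lower genes. Leaving out WT mouse 1, KO mouse 4 or KO mouse 5 left 289, 306 and 350 higher genes, and 38 lower genes remained without WT mouse 1.

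Chaperones of the ER rose together. Of 30 measured genes of the ER chaperone and unfolded protein response list, 14 were higher and 0 lower (10 higher without KO mouse 1, and 9 with median-of-ratios scaling). The list's median log2 difference was 0.37, against 0.11 for all genes. In pair-fed mice the list's median was 0.32, with 3 members higher. Every *Apoe* KO mouse exceeded every WT mouse in 14 of the 30 members, 13 of them past the threshold, and in 7.12% of all genes. The members that rose are folding, export and degradation factors of the ER lumen and membrane.

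*Derl3*, which codes for a channel protein that moves misfolded proteins out of the ER, had the largest difference in the list. It was 56, 100, 101, 187 and 48 in WT mice 1 to 5 and 1733, 1010, 569 and 980 in *Apoe* KO mice 1, 2, 4 and 5. Its log2 fold change was 3.49 (SE 0.37, limma adjusted p = 0.00051). All 4 KO values exceeded all 5 WT values. *Derl3* is also a plasma cell gene, and the antibody-joining chain *Jchain* rose as well, by 1.81 (SE 0.38). Among the KO mice *Jchain* ran from 177 in mouse 1 to 753 in mouse 4. Which cells the *Derl3* reads came from was not tested.

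*Sdf2l1*, a partner of the chaperone BiP, was 319 to 509 in WT and 919 to 1691 in *Apoe* KO mice (log2 1.79, SE 0.18, limma adjusted p = 0.00040). *Creld2*, an ER protein released under stress, was 1116 to 2527 in WT and 3304 to 6039 in KO mice (log2 1.51, SE 0.22). *Pdia4*, a disulfide isomerase, was 4982 to 7154 in WT and 10870 to 13959 in KO mice (log2 1.09, SE 0.12). In each of these genes the groups were separate, and the adjusted p stayed under 0.05 when any 1 mouse was left out.

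*Hspa5*, which encodes BiP, the main ER Hsp70, had 25689, 25222, 25374, 36202 and 26738 scaled reads in WT mice and 62093, 56736, 51042 and 51139 in KO mice. That is a log2 fold change of 1.0 (SE 0.13, limma adjusted p = 0.0016), with the groups apart by a wide margin. *Manf*, a secreted ER stress factor, rose from 2267–3268 to 5134–6625 (log2 1.06, SE 0.12). Smaller rises were measured in *Hsp90b1* (0.80), *Hyou1* (0.79), *Syvn1* (0.73), *Calr* (0.62), *Pdia3* (0.55), *Dnajb11* (0.53), *Pdia6* (0.52) and *Dnajb9* (0.40). Of these 8, *Pdia3*, *Dnajb11*, *Dnajb9*, *Pdia6* and *Syvn1* did not pass with median-of-ratios scaling.

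The sensors and transcription factors of the response were not among the genes that passed. *Xbp1*, the factor spliced by the sensor IRE1, was 4666 to 7162 in WT and 5013 to 8180 in KO mice (log2 0.10, SE 0.15). *Ern1* (IRE1) differed by 0.25 (SE 0.17), *Atf6* by 0.02 (SE 0.12) and *Eif2ak3* (PERK) by 0.54 (SE 0.15, limma adjusted p = 0.061). These values count all transcripts of a gene and say nothing of splicing, cleavage or phosphorylation. In the list of the integrated stress response, the arm driven by ATF4 and CHOP, 1 of 14 members passed, the asparagine synthetase *Asns* (log2 1.29, SE 0.30), and it no longer passed without WT mouse 1 or 2 or without KO mouse 2, 4 or 5. *Atf4* (0.25, SE 0.21) and *Ddit3* (0.73, SE 0.43) did not pass.

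**Figure D1:**
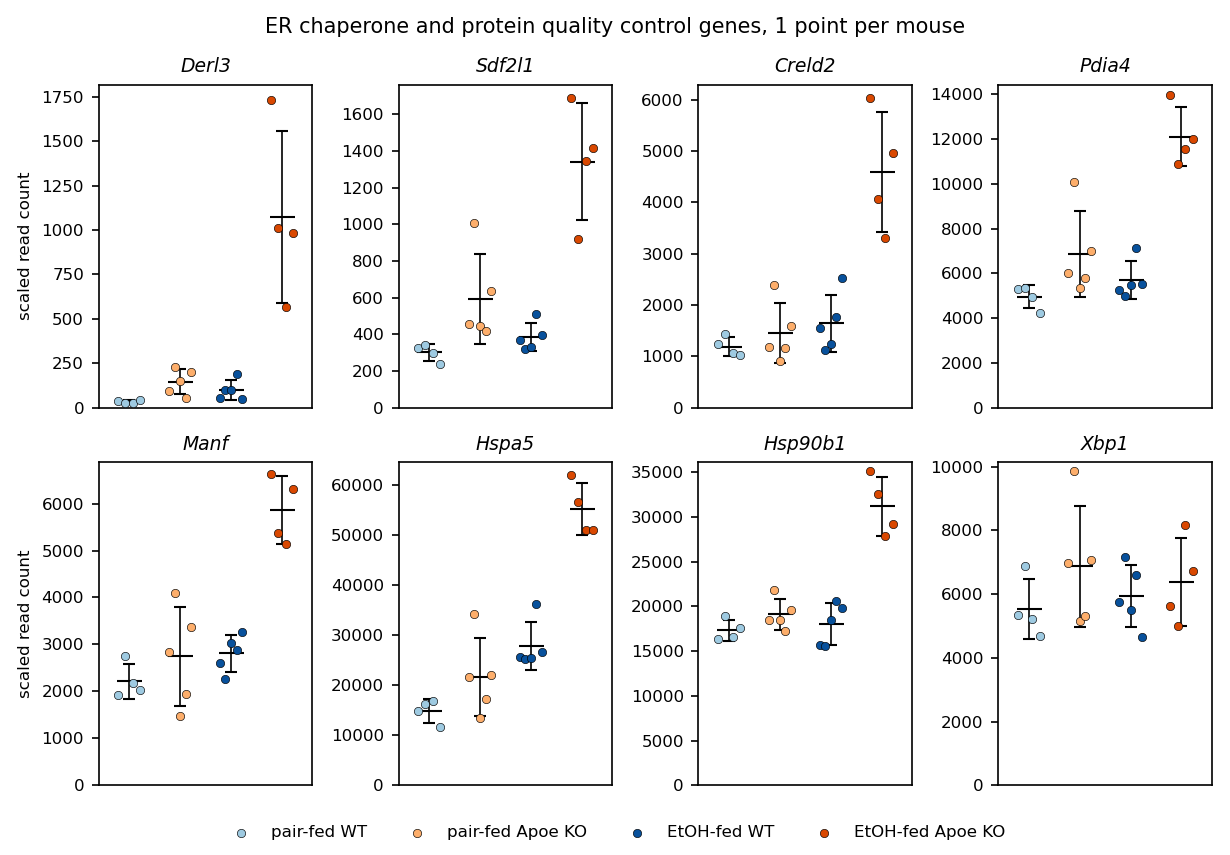
Scaled read counts (y axis, from 0) of 8 ER genes in each mouse of the 4 groups, with mean and SD as bars. In 7 of the panels all 4 EtOH-fed *Apoe* KO mice lie above all 5 EtOH-fed WT mice, while *Xbp1* overlaps.

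The promoters of these genes are shown because ER chaperone genes are known for a shared element, the ER stress response element (ERSE). RefSeq promoters (GRCm38.p6, 250 bases before to 50 after each annotated start) were found for 12 of the 14 members that rose. The letters CCAAT and CCACG with 9 free bases between them were searched on both strands. They were in 7 of those 12 promoters, in 2 of 14 promoters of members that did not pass, and in 0.119% of all 32851 promoters. The related ERSE-II, ATTGG and CCACG with 1 free base between them, was in 1 of the 12 and in 0.0365% of all promoters. Each window below runs 5′ to 3′ on the strand of its gene and ends before the start, and capitals mark the match.
Hspa5: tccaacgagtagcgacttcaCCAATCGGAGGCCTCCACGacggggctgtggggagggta
Derl3: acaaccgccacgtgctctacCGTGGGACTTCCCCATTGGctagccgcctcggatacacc
Creld2: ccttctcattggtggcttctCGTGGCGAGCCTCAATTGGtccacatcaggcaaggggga
Pdia6: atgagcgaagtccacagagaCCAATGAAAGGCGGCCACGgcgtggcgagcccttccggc
Syvn1: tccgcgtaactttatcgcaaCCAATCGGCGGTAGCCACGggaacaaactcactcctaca
The windows are chr2:34772005-34772063 (plus strand), chr10:75893222-75893280 (plus), chr15:88819500-88819558 (plus), chr12:17266471-17266529 (plus) and chr19:6046512-6046570 (plus), in the order shown. In *Hspa5*, *Pdia6* and *Syvn1* the letters read on the gene's own strand, with the first base of the match 65, 98 and 44 bases before the start. In *Derl3* and *Creld2* they read on the opposite strand, 156 and 126 bases before it. *Calr* and *Hsp90b1* also held a match. A match is a description of the sequence and not a measured binding site.

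Genes of fatty acid synthesis were lower in part. Of 18 measured genes of fatty acid and triglyceride synthesis, 4 were lower and 0 higher, and the median log2 difference was −0.45. *Elovl6*, which elongates palmitate, was 15120, 17207, 8889, 14329 and 31214 in WT mice and 3234, 3039, 8036 and 7182 in *Apoe* KO mice. Its log2 fold change of −1.71 (SE 0.34, limma adjusted p = 0.014) kept its call without any 1 mouse. *Scd1*, the stearoyl-CoA desaturase and among the most abundant lipogenic transcripts, was 53899 to 109067 in WT and 26867 to 52246 in KO mice (log2 −1.14, SE 0.25, limma adjusted p = 0.022). The gap between the groups was small in *Scd1*, as WT mouse 3 lay just above KO mice 4 and 5.

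*Srebf1*, the transcription factor of lipogenesis, was 2556 to 5330 in WT and 1661 to 2497 in KO mice (log2 −0.83, SE 0.21). *Agpat2*, an acyltransferase of glycerolipid assembly, was 4300 to 5663 and 2941 to 3960 (log2 −0.56, SE 0.12). In all, 13 of the 18 members had a log2 difference below 0 and 5 above. *Fasn* differed by −0.77 (SE 0.28) and *Acaca* by −0.62 (SE 0.23) without passing, and the acyltransferase *Mogat1* by 0.88 (SE 0.40), also without passing. KO mice 1 and 2 carried the lowest *Fasn* and *Acaca* values, whereas KO mice 4 and 5 lay inside the WT range. The list's count fell to 1 without WT mouse 1 and to 2 without KO mouse 1 or KO mouse 2.

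Some genes of the lipid droplet were higher. *Plin2*, the coat protein of hepatocyte droplets, was 24904, 27712, 21644, 19056 and 18812 in WT mice and 37337, 55765, 39444 and 34632 in KO mice. No values overlapped, and the log2 fold change was 0.89 (SE 0.16, limma adjusted p = 0.0082). *Pnpla2*, the triglyceride lipase of the droplet, was 1815 to 2426 in WT and 3074 to 4826 in KO mice (log2 0.84, SE 0.16). Its inhibitor *G0s2* fell by 1.26 on the log2 scale (SE 0.25), from 7381–16241 to 3822–8274. *Cidec*, which fuses droplets, rose by 1.09 (SE 0.29), and its call was lost in 8 of the 9 fits without 1 mouse. In all, 3 of 14 droplet genes were higher and 1 lower, 2 and 1 without KO mouse 1, and 1 and 1 with median-of-ratios scaling.

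Of 21 genes of lipoprotein handling, 2 were higher and 1 lower, where 4.69% of all genes passed. *Abcg1*, a cholesterol exporter, was 259 to 365 in WT and 592 to 704 in KO mice (log2 1.05, SE 0.14, limma adjusted p = 0.0015). *Pltp*, the phospholipid transfer protein, was 547, 627, 436, 613 and 566 in WT mice and 1298, 919, 1101 and 1146 in KO mice (log2 1.0, SE 0.14). Both are known LXR targets, as is *Abca1*, which was 3402 to 5354 in WT and 3551 to 4549 in KO mice (log2 0.05, SE 0.13). A part of LXR in these values was not tested. The structural apolipoproteins did not pass, with *Apob* at −0.04 (SE 0.14) and *Apoa1* at 0.18 (SE 0.17). *Apoc2*, which neighbours *Apoe* on chromosome 7, fell by 1.34 (SE 0.31), without passing in 5 of 9 fits that left out 1 mouse.

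**Figure D2:**
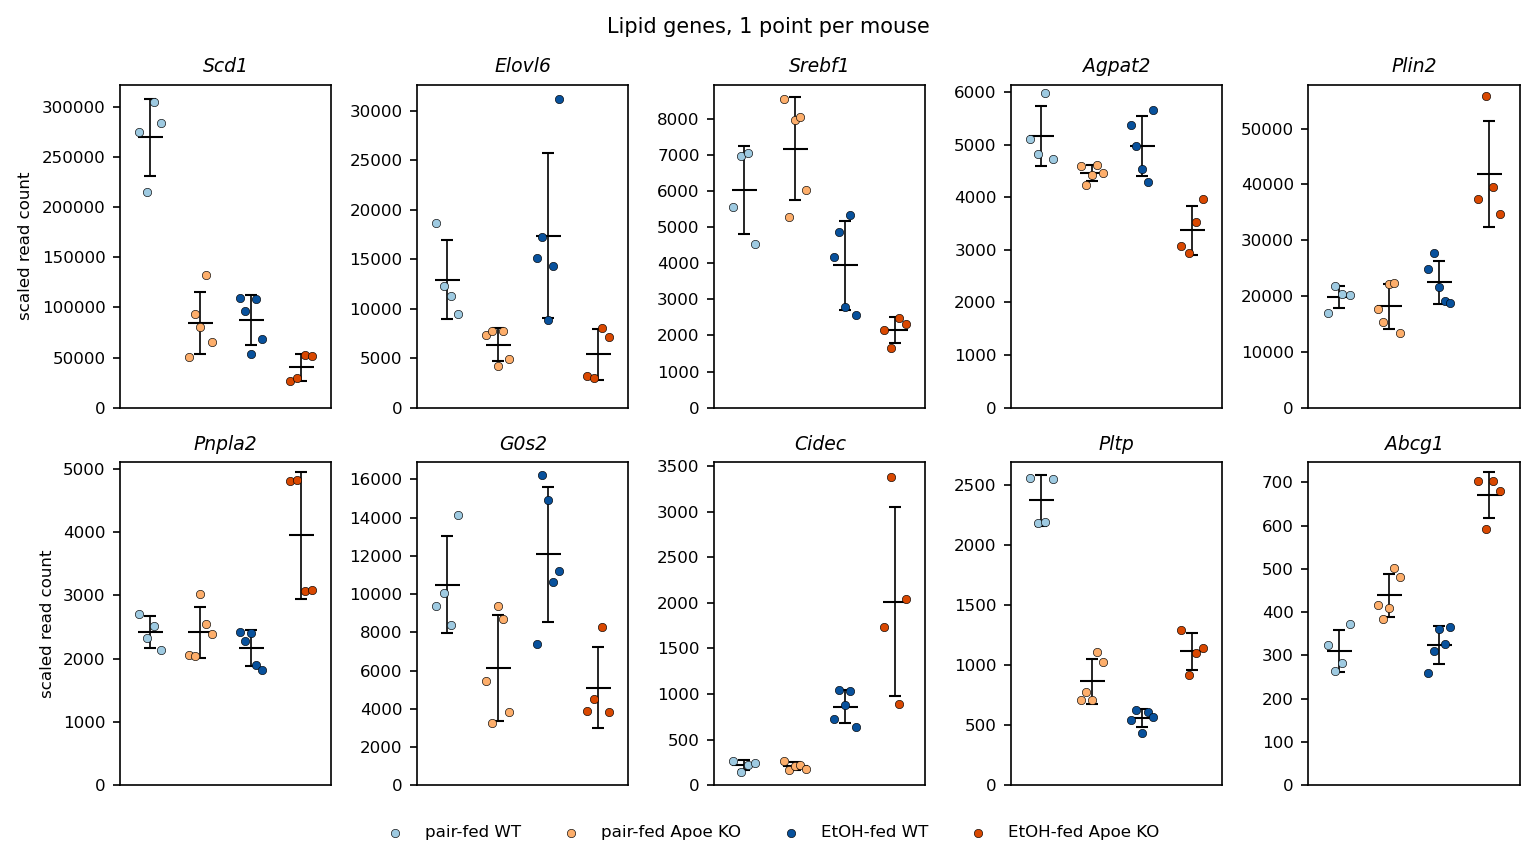
Scaled read counts (y axis, from 0) of 10 lipid genes in each mouse of the 4 groups, with mean and SD as bars. *Scd1*, *Elovl6*, *Srebf1* and *Agpat2* have their lowest mean in EtOH-fed *Apoe* KO mice, *Plin2*, *Pnpla2* and *Abcg1* their highest, and *Pltp* changes the order of its genotypes between diets.

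Cholesterol synthesis and fatty acid oxidation held 1 gene each past the threshold, a share near the 4.69% of all genes. Of 23 SREBP2 targets, 1 was lower (0 without KO mouse 1), the sterol carrier *Stard4* (log2 −0.55, SE 0.13), and it passed in 2 of the 9 fits without 1 mouse. Of 20 genes of fatty acid oxidation, 1 was lower, the peroxisomal thioesterase *Acot3* (log2 −1.03, SE 0.17, limma adjusted p = 0.0053). It was 3620 to 5632 in WT mice and 2466, 2397, 1416 and 2280 in KO mice, with no overlap. *Cpt1a*, the entry step into mitochondria, was 9922 to 18502 and 11426 to 14954.

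Other hepatocyte pathways held no gene past the limma threshold. The count was 0 of 12 for ethanol, acetaldehyde and acetate oxidation, 0 of 17 for bile acid synthesis and transport, 0 of 19 for glucose and glycogen, 0 of 20 for urea and amino acids, 0 of 17 for the growth hormone and IGF axis and 0 of 20 for cytochrome P450s away from chromosome 7. Lists this short can hold none at the 4.69% share of all genes, so the 0 counts do not show that a pathway is unchanged. At an unadjusted p under 0.05 these lists held 1, 4, 4, 5, 7 and 5 genes, in that order. Of all 15052 genes, 2845 lay under that unadjusted p. With median-of-ratios scaling, 2 P450 genes, 1 bile acid gene and 1 glucose gene passed as lower, and without KO mouse 1 there was 1 P450 gene higher and 1 lower. *Cyp2e1*, the ethanol-inducible P450, was 131500 to 171496 in WT and 118964 to 174913 in KO mice. *Adh1*, the main alcohol dehydrogenase, was 66201 to 99730 and 60331 to 82074. The bile acid repressor *Nr0b2* spread widely, with 85 to 889 in WT and 81 to 147 in KO mice (log2 −1.82, SE 0.53, limma adjusted p = 0.070). Hepatocyte identity, read from 10 defining markers such as *Alb*, had 0 members past the limma threshold, 1 at an unadjusted p under 0.05, and a median log2 difference of 0.01.

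A few single genes of other hepatocyte lists did pass. *Esr1*, the oestrogen receptor, was the only one of 20 hepatocyte nuclear receptors and transcription factors to do so, with 1247 to 1678 in WT and 794 to 1147 in KO mice (log2 −0.56, SE 0.14), and it did not pass without WT mouse 1, 4 or 5 or KO mouse 2 or 4. *Slc13a3*, a dicarboxylate transporter of the pericentral list, rose by 0.74 (SE 0.16), but did not pass with median-of-ratios scaling (limma adjusted p = 0.057), and KO mouse 1 was highest with 1793. *Phgdh*, the first enzyme of serine synthesis, rose from 22–88 to 82–426 (log2 2.23, SE 0.47). The clock repressor *Bhlhe41* rose from 27–78 to 99–385 (log2 1.60, SE 0.39), and its call was lost in 5 of the 9 fits without 1 mouse and with voom. Among 20 NRF2 targets, the haem oxygenase *Hmox1* (1.49, SE 0.32), *Srxn1* (0.88, SE 0.19) and *G6pdx* (1.05, SE 0.24) were higher. None of these 3 kept its call without WT mouse 1, and 1 gene of the list passed without KO mouse 2 or KO mouse 5 and 5 without WT mouse 3, while the classical target *Nqo1* differed by 0.13 (SE 0.23).

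Secreted proteins of the acute phase were higher. Of 26 measured acute-phase genes, 6 were higher and 0 lower, also without KO mouse 1, and the median log2 difference was 0.42. In pair-fed mice the median of this list was 0.51, with 2 members higher and 0 lower. *Saa2*, a serum amyloid A gene, was 1345, 1248, 728, 654 and 455 in WT mice and 4622, 2096, 8855 and 8194 in KO mice (log2 2.65, SE 0.40, limma adjusted p = 0.0031). *Saa1* was 908 to 2429 and 3299 to 13694 (log2 2.42, SE 0.38). The lipocalin *Lcn2* was 452 to 1967 and 4196 to 8270 (log2 2.26, SE 0.36). In these genes KO mouse 2 was lowest among the KO mice and still above each WT mouse.

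The acid glycoproteins *Orm2* (1.56, SE 0.22) and *Orm3* (2.13, SE 0.39) and the IL-1 receptor antagonist *Il1rn* (1.24, SE 0.28) rose too. *Saa1* and *Saa2*, and the *Orm* genes among themselves, are near-identical copies between which reads may have been divided. Haptoglobin, *Hp*, was 89573 to 124176 in WT and 131036 to 160371 in KO mice, with no overlap but a log2 difference of 0.49 (SE 0.15, limma adjusted p = 0.077). Of 21 plasma carriers and protease inhibitors, 0 were higher and 1 lower by limma, a share near that of all genes. That was *Serpina6*, the corticosteroid-binding globulin, at 10906 to 17644 in WT and 8228 to 9543 in KO mice (log2 −0.71, SE 0.14, limma adjusted p = 0.011). Of 28 complement and coagulation factors, *C6*, *F11* and *Pros1* were higher by 0.98, 0.63 and 0.42, where 4.25% of all genes were higher. Without KO mouse 1 or KO mouse 4, or with median-of-ratios scaling, 1 gene of the list passed, a share near that of all genes.

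**Figure D3:**
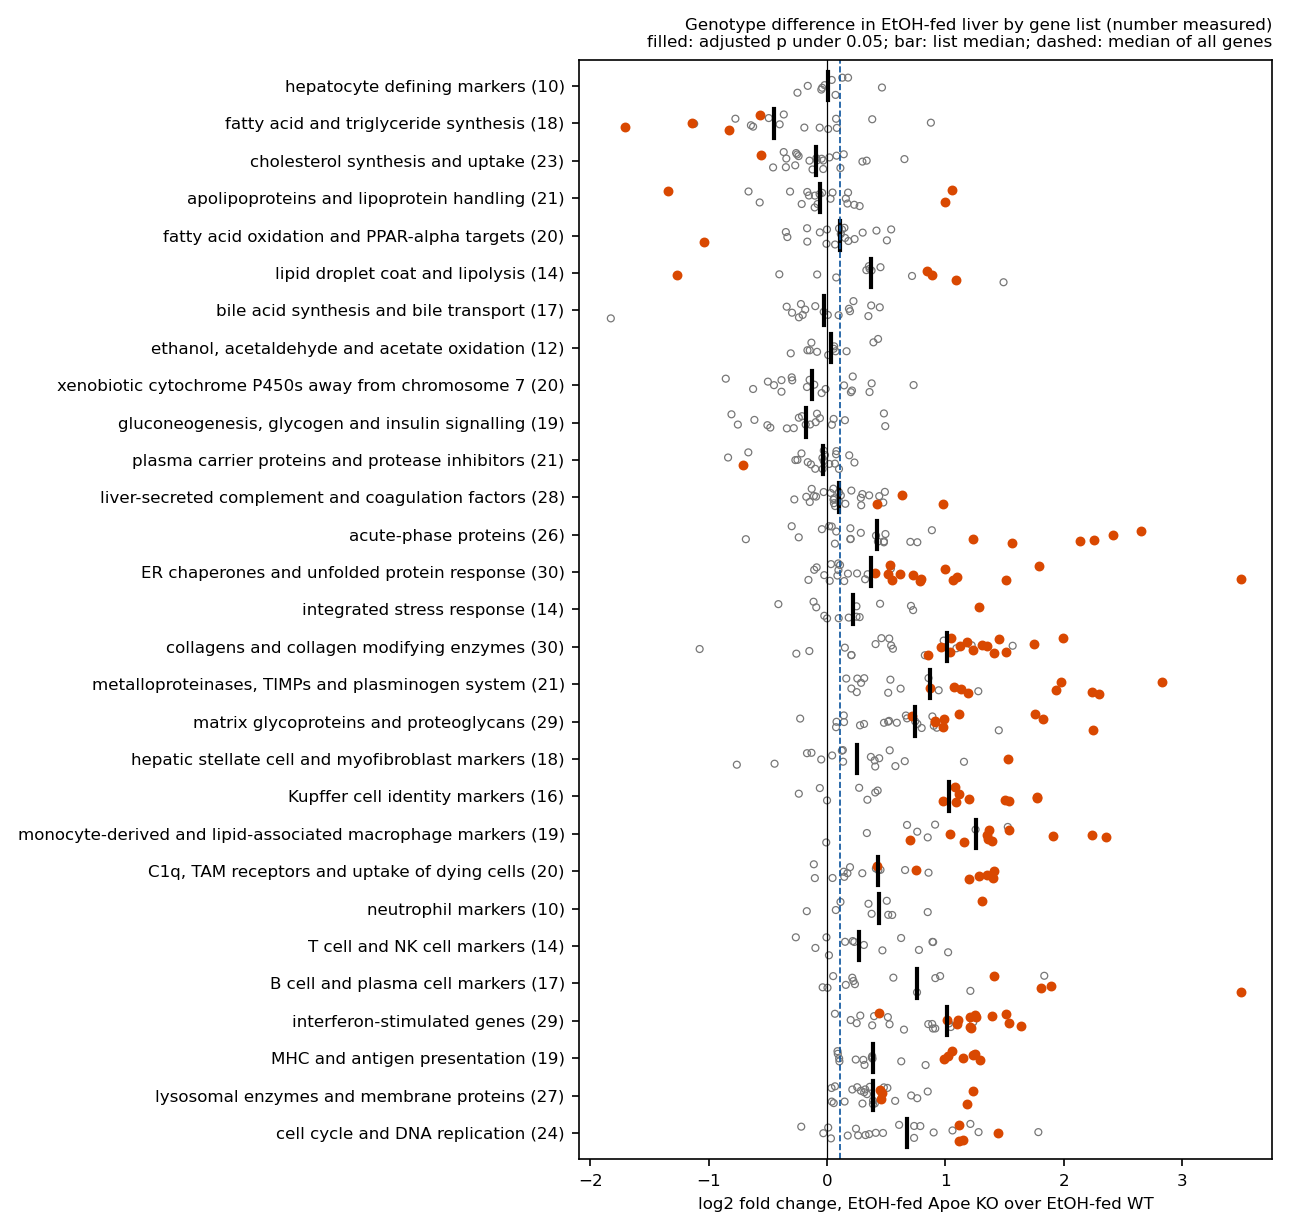
Log2 fold change of *Apoe* KO over WT mice on the EtOH diet (x axis) for each member of 29 gene lists (rows, number measured in brackets). Filled points passed an adjusted p of 0.05, black bars are list medians and the dashed line is the median of all genes. Matrix, macrophage and interferon lists lie to the right, with medians near 1 for collagens (1.01) and interferon-stimulated genes (1.01), and lipogenesis to the left (−0.45).

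Macrophage genes were higher in the *Apoe* KO mice. Of 16 Kupffer cell identity markers, 9 were higher and 0 lower (7 higher without KO mouse 1), with a median log2 difference of 1.03. *Clec4f*, a lectin restricted to Kupffer cells, was 1995, 3633, 2146, 2948 and 2833 in WT mice and 7486, 4129, 5486 and 6379 in KO mice (log2 1.11, SE 0.19, limma adjusted p = 0.0060). *Cd5l*, a secreted macrophage protein, rose from 1455–2906 to 4738–9309 (log2 1.77, SE 0.22). Both were highest in KO mouse 1, and KO mouse 2 was the lowest of the KO mice. In bulk liver, more cells of a type and more RNA per cell cannot be told apart, here and in what follows.

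Of 19 markers of monocyte-derived and lipid-associated macrophages, 11 were higher and 0 lower, also without KO mouse 1, and 7 without KO mouse 4. The endosomal glycoprotein *Cd68* was 187 to 275 in WT and 508 to 595 in KO mice (log2 1.35, SE 0.15, limma adjusted p = 0.000725). *Lyz2* (1.54, SE 0.20), *Trem2* (1.91, SE 0.30), *Gpnmb* (2.35, SE 0.48) and *Mmp12* (2.24, SE 0.30) rose as well. *Trem2*, a lipid receptor that binds ApoE, was 34 to 58 in WT and 104 to 250 in KO mice. The chemokine receptor of recruited monocytes, *Ccr2*, was not among those that passed.

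The summed level of the Kupffer list was 16053 to 21608 in WT and 22717 to 37466 in KO mice. That of the monocyte-derived and lipid-associated list was 6741 to 10972 and 13819 to 25604. The macrophage growth factor receptor *Csf1r* rose by 1.04 (SE 0.19). Genes for the uptake of dying cells rose in 7 of 20 cases (6 without KO mouse 1). They include the complement C1q chains *C1qa* (1.29, SE 0.19), *C1qb* (1.41, SE 0.17) and *C1qc* (1.40, SE 0.19), which macrophages make, and the phosphatidylserine-dependent receptor *Axl* (1.35, SE 0.15). *Axl* lies within 20 Mb of *Apoe*. Of 27 lysosomal genes, 5 were higher, led by the proteases *Lgmn* (1.18, SE 0.14) and *Ctss* (1.23, SE 0.19). That count was 2 with median-of-ratios scaling or without WT mouse 1, 4 or 5 or any 1 KO mouse, and 3 without WT mouse 3.

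Other leukocyte lists held fewer members past the threshold. Of 24 neutrophil markers only 10 were measured, and *Ly6g*, *Elane* and *Mpo* were not among them. Of these 10, 1 was higher, the formyl peptide receptor *Fpr1* (log2 1.31, SE 0.32), which macrophages also carry. *Fpr1* passed in 2 of the 9 fits without 1 mouse. Log2 differences were above 0 in 9 of the 10 (8 with median-of-ratios scaling), with a median of 0.44. The list thus says little of neutrophil number. *S100a8*, a major neutrophil transcript, was not past the threshold. Of 14 T and NK cell markers 0 passed by limma, 1 without KO mouse 1, and 1 at an unadjusted p under 0.05 (2845 of all 15052 genes). Of 17 B and plasma cell genes 4 were higher (5 without KO mouse 1), *Derl3* among them. *Igha* rose from 87–191 to 269–957 (log2 1.89, SE 0.35) and *Ighm* from 137–347 to 473–1032 (log2 1.41, SE 0.27).

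Interferon-stimulated genes were also higher. Of 29 measured, 13 were higher and 0 lower, also without KO mouse 1, and 11 with median-of-ratios scaling. All 29 log2 differences were above 0 (28 with median-of-ratios scaling), with a median of 1.01. *Usp18*, which removes the ISG15 tag, was 289, 451, 401, 349 and 308 in WT mice and 983, 814, 1269 and 750 in KO mice (log2 1.39, SE 0.18, limma adjusted p = 0.0013). *Ifit3*, an antiviral RNA-binding protein, was 296 to 621 and 904 to 1568 (log2 1.51, SE 0.22). *Irf7*, the amplifying factor of the pathway, was 759 to 1005 and 1232 to 2126 (log2 1.01, SE 0.16).

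These genes are known for an interferon-stimulated response element, whose core, GAAA and GAAA with 2 free bases between them, was searched on both strands. It was in 5 of 13 promoters of the members that rose (from 11 of the 13 genes), in 8 of 14 promoters of those that did not pass, and in 3.44% of all promoters. The share was thus not higher in the members that rose. Windows of *Ifit3* and *Rsad2* are given with capitals for the match.
Ifit3: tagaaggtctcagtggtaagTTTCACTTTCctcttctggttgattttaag
Rsad2: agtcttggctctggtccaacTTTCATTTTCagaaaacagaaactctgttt
They lie at chr19:34583353-34583402 (plus strand) and chr12:26456543-26456592 (minus), and the match starts 156 and 120 bases before the start. *Rsad2*, which codes for viperin, was 333 to 659 in WT and 974 to 1277 in KO mice (log2 1.21, SE 0.18).

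Antigen presentation followed in its class II branch. Of 19 genes, 7 were higher, and 6 of these 7 belong to class II (*H2-DMa*, *H2-DMb1*, *H2-Ab1*, *H2-Eb1*, *H2-Aa* and *Cd74*), while the seventh is the costimulator *Cd86*. *Cd74*, the invariant chain, was 1530 to 2273 in WT and 2642, 3339, 6624 and 3672 in KO mice (log2 1.06, SE 0.21), with KO mouse 4 well above the rest. The count was 4 without WT mouse 1 or KO mouse 5. The endotoxin co-receptor *Cd14* rose from 110–170 to 327–520 (log2 1.63, SE 0.19, limma adjusted p = 0.00081). *Vcam1* (1.08, SE 0.20), *Tlr2* (1.34, SE 0.29), *Nlrp3* (1.47, SE 0.32) and *Rela* (0.46, SE 0.10) were the other 4 of 28 genes of that list that rose, with 2 left without KO mouse 4 and 3 without KO mouse 5. *Tlr4* was 36 to 48 in WT and 50 to 160 in KO mice without passing. Of 24 chemokine genes 4 were higher, among them *Ccl6* (1.14, SE 0.20), *Ccl24* and *Cxcl10*, where 4.25% of all genes were higher. The chemokine count was 2 with median-of-ratios scaling or without WT mouse 1, WT mouse 5 or KO mouse 5. *Ccl2* did not pass.

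Matrix genes rose. Of 30 collagens and collagen-modifying enzymes, 14 were higher and 0 lower (13 without KO mouse 1), and the median log2 difference was 1.01. The fibril collagen *Col1a1* was 840, 762, 1597, 1655 and 1151 in WT mice and 3256, 3903, 8331 and 4083 in KO mice (log2 2.0, SE 0.28, limma adjusted p = 0.0022). *Col3a1* was 1065 to 2058 and 3705 to 8732 (log2 1.75, SE 0.24). KO mouse 4 was highest in both, yet the other 3 KO mice also exceeded every WT mouse. *Col1a2* (1.45, SE 0.22), the basement membrane collagen *Col4a1* (1.23, SE 0.19) and the cross-linking enzyme *Loxl2* (1.51, SE 0.23) passed without any 1 mouse.

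Of 21 genes for matrix proteases and their inhibitors 9 were higher, 8 without KO mouse 1, and 5 without WT mouse 1, WT mouse 2 or KO mouse 4. *Mmp12*, the macrophage elastase named above, and the stromelysin *Mmp3* (2–14 to 32–96, log2 2.83, SE 0.55) were among them. In pair-fed mice *Mmp3* was 17 to 33 in WT and 0 to 7 in KO mice (log2 −3.30, without passing). *Timp1* was 12 to 43 in WT and 37 to 229 in KO mice (log2 2.29, SE 0.52), with some overlap. Of 29 matrix glycoproteins 9 were higher (7 without KO mouse 1), such as the collagen-binding *Sparc* (0.91, SE 0.17) and the laminin chain *Lamc1* (0.72, SE 0.13). This count was 4 or 5 with median-of-ratios scaling and without WT mouse 1, WT mouse 2, KO mouse 4 or KO mouse 5.

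Stellate cells and myofibroblasts usually make this matrix. Of their 18 markers 1 was higher, a share near that of all genes (4.69%). It was *Vim* (log2 1.53, SE 0.33), which many other cells express, and it did not pass without WT mouse 1, KO mouse 4 or KO mouse 5. *Acta2*, the actin of activated stellate cells, was 120, 19, 173, 51 and 81 in WT mice and 34, 301, 184 and 319 in KO mice, a wide overlap (log2 1.16, SE 0.67). *Lrat*, of quiescent stellate cells, differed by 0.40 (SE 0.25). The summed stellate list was 12854 to 19971 in WT and 14664 to 24751 in KO mice. Its part in the collagen values was not tested.

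In the growth factor pathways around the matrix, 3 of 25 TGF-beta and BMP genes were higher, where 4.25% of all genes were. These were the latent-binding proteins *Ltbp3* (1.23, SE 0.27) and *Ltbp1* (1.16, SE 0.28) and the receptor *Tgfbr2*. None of the 3 passed without WT mouse 1, KO mouse 4 or KO mouse 5, 1 gene of the list passed without WT mouse 2, 5 without KO mouse 2 and 6 without WT mouse 5. *Tgfb1*, within 20 Mb of *Apoe*, was 279 to 394 in WT and 370 to 561 in KO mice (log2 0.59, SE 0.16, limma adjusted p = 0.053). *Ankrd1* and *Ajuba* were higher among 14 YAP targets, by 2.06 and 0.64, beside *Axl*, and 1 of the 3 passed without WT mouse 1, WT mouse 2, KO mouse 4 or KO mouse 5. Immediate early genes and MAPK feedback genes held 0 of 18 and 0 of 19 past the limma threshold, and 4 and 6 at an unadjusted p under 0.05. Of all 15052 genes, 2845 lay under that unadjusted p.

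Of 17 duct and epithelial genes 3 were higher and 1 lower (1 and 1 with median-of-ratios scaling), and of 10 oncofetal genes 2 were higher. The hepatocyte and duct keratin *Krt8* was 4930 to 7207 in WT and 10782 to 15115 in KO mice (log2 1.02, SE 0.13, limma adjusted p = 0.0012), and its partner *Krt18* rose by 0.54 (SE 0.12). The duct keratin *Krt19* was 43 to 404 and 299 to 1273 (log2 2.04, SE 0.53), its WT and KO ranges overlapping, and it passed in 2 of the 9 fits without 1 mouse. The duct markers *Sox9* and *Spp1* did not pass. The fetal albumin homologue *Afp*, the best known oncofetal gene, differed by 0.07 (SE 0.30) without passing. *Ly6d*, a surface protein that fetal and injured liver can express, was 142 to 419 and 661 to 1662 (log2 2.15, SE 0.34). *Igf2bp1*, an oncofetal RNA-binding protein, rose from 1–14 to 18–164 (log2 2.96, SE 0.69), a low gene in which 1 read of KO mouse 4 stood for 4.09 units, and it did not pass with voom or without WT mouse 1, KO mouse 2 or KO mouse 4. *Sprr1a*, a cornified envelope protein induced by injury, rose from 16–76 to 84–274 (log2 2.78, SE 0.46). Of 13 annexins and S100 partners 5 rose, among them *Anxa2* (1.08, SE 0.25) and *Anxa5* (0.76, SE 0.12). That count was 1 without WT mouse 1, 2 without WT mouse 2, KO mouse 4 or KO mouse 5, and 3 without KO mouse 2.

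Of 24 cell cycle genes 4 were higher, *Top2a* (1.45), *Cdk1* (1.15), *Cdc20* (1.12) and *Mki67* (1.12), and 0 with median-of-ratios scaling. The count was 0 to 2 without any 1 mouse other than WT mouse 2. Respiratory chain subunits held 0 of 24 and cytosolic ribosomal proteins 0 of 29 past the limma threshold, and both lists 0 at an unadjusted p under 0.05.

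Genes close to *Apoe* were also counted apart. Within 20 Mb of *Apoe* on chromosome 7, 43 of 401 other genes passed (10.7%, against 4.69% of all 15052), 28 higher and 15 lower, and 30 without KO mouse 1, 15 in each direction. With pair-feeding 20 of the 43 passed with the same sign. They include the sulfotransferase *Sult2a6* (0–6 in WT, 23–268 in KO, log2 5.87, SE 0.81) and *Igsf23* (24–42 in WT, 600–852 in KO, log2 4.70, SE 0.22), the smallest p of all genes. *Cyp2b9* was 16754 to 21178 in WT mice and 143 to 1017 in KO mice (log2 −4.99, SE 0.44). *Cyp2b13* differed by −5.27 (SE 0.50), *Sult2a2* by −2.05 (SE 0.40) and the hepcidin copy *Hamp2* by −1.47 (SE 0.21). *Cyp2b*, *Sult2a* and hepcidin genes have near-identical copies, so their single values are uncertain. *Lgals4* (−1.37, SE 0.23), *Fcgbp* (2.89, SE 0.66), *Plaur* and *Axl* lie in this region too. The KO allele and the chromosomal region it came with cannot be told apart in these mice.

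Pair-fed mice served as the reference for what *Apoe* loss did without ethanol. These are other mice, and no control is shared. There, 261 genes differed (1.73%), 131 higher and 130 lower. That count was unstable, with 73, 91, 119, 127 and 166 genes without WT mouse 2, WT mouse 4, KO mouse 1, KO mouse 4 and KO mouse 3 of the pair-fed mice, and 452 and 670 without their KO mouse 5 and WT mouse 3. Of the 706 genes that differed in EtOH-fed mice, 39 passed without ethanol with the same sign and 10 with the opposite one (30 and 15 of 620 without EtOH-fed KO mouse 1). The difference between diets was tested by the interaction, which passed for 428 genes (2.84%), 392 of them with a larger KO minus WT difference under ethanol. It passed for 255 of the 706 genes (36.1%), and for 290 of 620 without EtOH-fed KO mouse 1, when 479 passed in all. The interaction count was 228, 241 and 252 without EtOH-fed WT mouse 1, KO mouse 4 and KO mouse 5, and 241, 167 and 266 without pair-fed WT mouse 2, WT mouse 4 and KO mouse 3.

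*Pltp* had the smallest interaction p of the genes named here. KO mice exceeded WT by 1.0 with ethanol and fell short by 1.47 without, on the log2 scale (interaction 2.47, limma adjusted p = 1.1e-06). *Plin2* differed by 0.89 with ethanol and −0.15 without (interaction 1.04, adjusted p = 0.019) and *Pnpla2* by 0.84 and −0.01 (interaction 0.85, adjusted p = 0.033). *Col1a1* differed by 2.0 and −0.09 (interaction 2.08, adjusted p = 0.011), and 10 of the 30 collagen genes had an interaction. *Clec4f* (1.11 and −0.55), *C1qa* (1.29 and −0.36), *Cd74* (1.06 and −0.71) and *Axl* (1.35 and −0.44) had one as well.

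Of the 18 lipogenic genes 1 had an interaction and of the 30 ER genes 2, where 2.84% of all genes had one. Of the 26 acute-phase genes 1 had one, with a smaller KO minus WT difference under ethanol. The medians of these 3 lists in pair-fed mice were −0.47, 0.32 and 0.51, close to those with ethanol (−0.45, 0.37 and 0.42). *Scd1* was lower in KO mice of both diets, by 1.14 with ethanol and 1.74 without in log2 size (interaction adjusted p = 0.45), and *Elovl6* likewise, with −1.71 and −1.02 (adjusted p = 0.48). *Srebf1* differed by −0.83 and 0.25 (interaction adjusted p = 0.047). *Derl3* was also higher in pair-fed KO mice, by 1.94 (interaction adjusted p = 0.16), and *Hspa5* by 0.49 without passing (interaction adjusted p = 0.36). The 2 ER genes were *Creld2* (1.51 with ethanol and 0.21 without) and *Hsp90b1* (0.80 and 0.14). *Gpnmb* was higher by 2.35 with ethanol and 2.03 without (interaction adjusted p = 0.86).

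**Figure D4:**
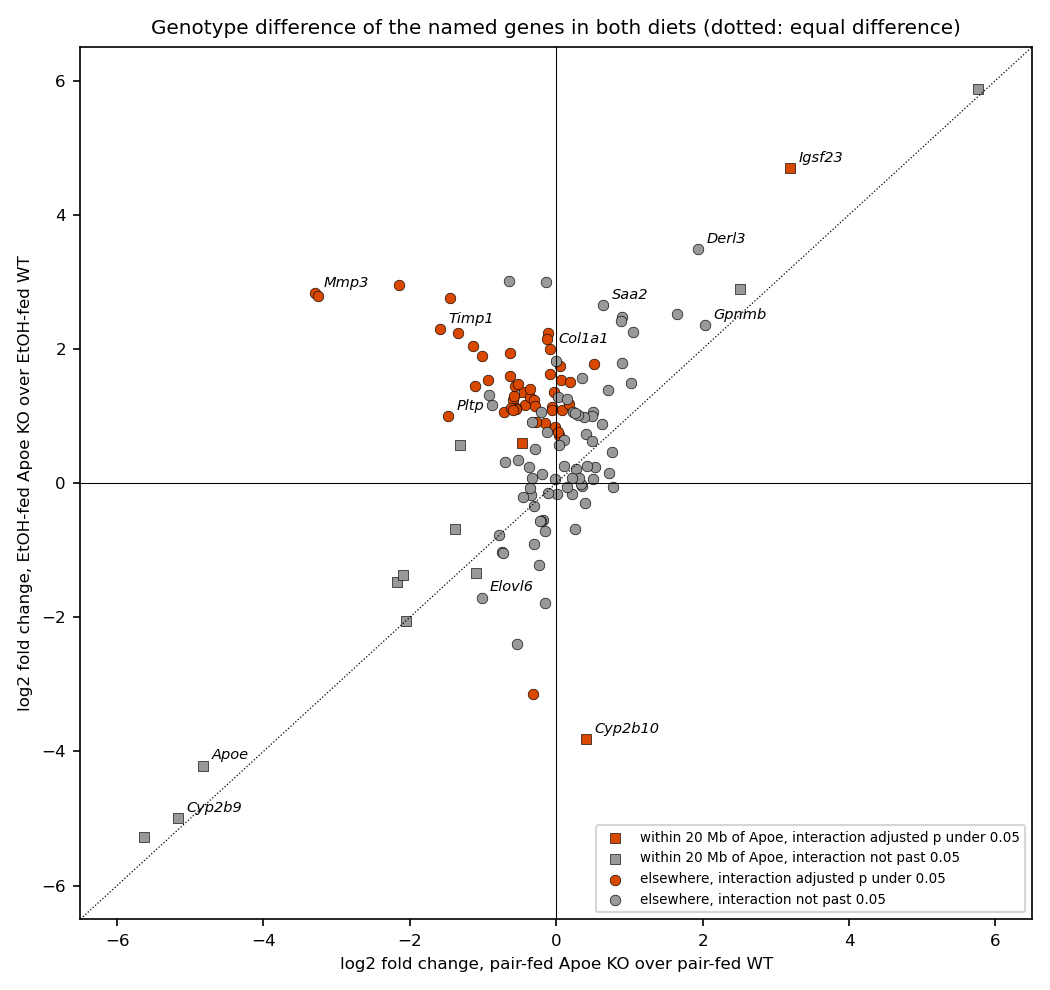
Log2 fold change of *Apoe* KO over WT in pair-fed (x axis) and EtOH-fed mice (y axis) for the 134 genes named by rule. Orange marks genes with an interaction adjusted p under 0.05, squares genes within 20 Mb of *Apoe*, and the dotted line an equal difference. *Apoe*, *Cyp2b9* and *Derl3* lie towards the line, while *Mmp3*, *Pltp*, *Timp1* and *Col1a1* lie above it.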

How the data were processed

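Liver polyA RNA-seq of 18 mice was used. Per the labels and methods, the authors trimmed reads with Trimmomatic, aligned them to GRCm38 with HISAT2, counted them with featureCounts and used DESeq2 (versions not given in the sources used here). What the authors deposited for each mouse is a signal: counts of reads brought to a common total (spread 0.0779%) and rounded. That scaling step is not described. The authors' fold change and p-value columns were not used. Because values are scaled, no count model was run.

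One entry per Ensembl gene was kept (15052 genes), of which 15040 were placed in GENCODE M21. The main test was limma 3.58.1 (R 4.3.3) with an intensity trend on log2(value + 1), Benjamini-Hochberg adjusted over 15052 genes at 0.05, on 4 EtOH-fed *Apoe* KO and 5 WT mice. Fold changes on this scale understate low genes. Each mouse is 1 replicate. The fit was tested on simulated data. Depth was estimated from the spacing of low values, resolved in 16 of 18 mice, and sets the smallest step a library can show. Python 3.11.15 was used for tables, motif search and figures.

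The members, the 58 gene lists and the tests were chosen with earlier results of these data known. Genes named by rule (134) were *Apoe*, the 12 largest non-overlapping changes past the threshold in each direction without predicted genes, the first member of each list, its 2 smallest adjusted p past the threshold, and sex-linked transcripts. Any other gene named was chosen after its values were seen. Alternatives were median-of-ratios scaling, a mean of at least 50, pseudocounts of 0.1 and 5, all 4 groups in the fit, sample weights, voom on estimated reads, a replicate block, X and Y genes left out, and each mouse left out. Some genes are not reported here.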

Additional observations from a re-analysis of the deposited data

Results flagged for a closer look

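Of 268 groups of 4 or 5 mice checked for a lone mouse, 18 had one (6.72%), where chance gives about 1 in 20. KO mouse 1 was the lone mouse in 6 of them, with 12041 scaled reads of *Apoe*, 143 of *Cyp2b9*, 3 of *Slc13a4*, 1793 of *Slc13a3*, 826 of *Xist* and 898 of the Y-linked *Eif2s3y*. *Slc13a4* was 0 in KO mice 2, 4 and 5, where 1 read stood for 2.4, 4.1 and 3.8 units. A link of this flag to depth was not tested. KO mouse 4 stood apart with 1416 of *Acot3*, 270 of *Fos*, 1249 of *Ltbp1* and 8732 of *Col3a1*, and KO mouse 5 with 23 of *Sult2a6* and 823 of *Nqo1*. Among WT mice, mouse 1 had 27 of *Bhlhe41* and 1062 of *Cdkn1a*, mouse 2 had 57 of *Mmp12*, mouse 3 had 42 of *Igsf23*, and mouse 4 had 76 of *Sprr1a* and 36202 of *Hspa5*.

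For 50 of the named genes the genotype difference itself differed between EtOH-fed and pair-fed mice (limma interaction, adjusted p from 1.06e-06 for *Pltp* to 0.049). The 47 values that follow are interactions, the EtOH-fed KO minus WT difference less the pair-fed one, on the log2 scale. Among lipid, metabolic and clock genes they were 2.47 for *Pltp*, 1.04 for *Plin2*, 0.85 for *Pnpla2*, 3.57 for *Phgdh* and 2.22 for *Bhlhe41*. The other 2 were below 0, −4.21 for *Cyp2b10* and −2.83 for *Slc13a4*. *Cyp2b10* lies within 20 Mb of *Apoe*. It was 2731 to 20780 in WT and 125 to 907 in KO mice under ethanol, and 32 to 161 and 27 to 455 with pair-feeding.

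Macrophage and antigen-presenting genes had 1.67 (*Clec4f*), 1.26 (*Cd5l*), 1.01 (*Il18bp*), 1.38 (*Cd68*), 1.47 (*Lyz2*), 1.65 (*C1qa*), 1.76 (*C1qb*), 1.01 (*Lgmn*), 1.53 (*Ctss*), 1.77 (*Cd74*), 1.87 (*H2-DMa*), 1.19 (*Ccl6*), 1.72 (*Cd14*), 1.15 (*Vcam1*) and 1.79 (*Axl*). *Igha* had 2.92 and the interferon-stimulated *Ifit3* 1.33.

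Matrix genes had 2.08 (*Col1a1*), 1.70 (*Col3a1*), 3.88 (*Timp1*), 2.35 (*Mmp12*), 6.13 (*Mmp3*), 0.68 (*Lamc1*), 1.19 (*Sparc*), 2.47 (*Vim*), 1.05 (*Tgfb1*), 1.83 (*Ltbp3*) and 1.59 (*Ltbp1*). Epithelial, cell cycle and annexin genes had 3.18 (*Krt19*), 6.04 (*Sprr1a*), 5.10 (*Igf2bp1*), 2.27 (*Ly6d*), 1.50 (*Igsf23*), 1.74 (*Mki67*), 2.0 (*Top2a*), 1.44 (*Cdk1*), 1.67 (*Anxa2*), 0.74 (*Anxa5*), 1.99 (*Anxa1*) and 2.55 (*Msln*, a mesothelial gene that did not pass in EtOH-fed mice). The large values of *Mmp3* and *Sprr1a* include an opposite difference in pair-fed mice (log2 −3.30 and −3.25).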

How the results depend on the processing

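No named gene past the threshold changed sign under any alternative run, while 5 named genes that had not passed did so with median-of-ratios scaling and up to 6 without 1 mouse. The median of the hepatocyte markers moved from 0.01 to −0.12 with that scaling. With median-of-ratios scaling, 380 genes were higher and 126 lower. With all 4 groups in the fit 108 were lower. Without 1 EtOH-fed mouse, the higher genes ran from 289 (without WT mouse 1) to 565 (without KO mouse 1) and the lower ones from 38 to 58. Genes that differed in pair-fed mice ran from 73 (without pair-fed WT mouse 2) to 670 (without WT mouse 3), and those with an interaction from 167 (without pair-fed WT mouse 4) to 561 (without WT mouse 3). The cause was not tested. Of the 92 named genes past the threshold, 79 kept it with median-of-ratios scaling, 86 with a pseudocount of 0.1, all 92 with a pseudocount of 5, 87 with all groups in the fit, 83 with sample weights, 83 with voom, and 60 (without WT mouse 1) to 82 (without KO mouse 1) without 1 mouse. With a mean of at least 50, all 83 such genes that could be tested kept it, and 91 of 91 without X and Y genes.

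Groups share replicate numbers in the labels. Deviations of same-numbered EtOH-fed KO and WT mice correlated at −0.0242 to 0.23 (mean 0.134). Those of differently numbered mice correlated at −0.156 to 0.138 (mean −0.0327), so same-numbered mice were somewhat more alike under ethanol. With pair-feeding the means were 0.0152 and −0.0035. What the numbers stand for is not known here. The main test did not use them, and a shared batch was not tested. With the replicate block, 961 genes were higher and 122 lower, and 392 differed in pair-fed mice. The block used only numbers present in both groups, so EtOH-fed WT mouse 3 and pair-fed KO mouse 5 were left out. Leaving out these mice alone, without a block, gave 520 higher and 58 lower genes, and 452 in pair-fed mice. The counts with the block thus do not show the effect of the block alone. Of the 92 named genes 87 kept their call with the block.

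Depth limits low genes. In KO mouse 4, with the fewest estimated reads among the 7 sized libraries (7.88 in units of 1e6), 1 read was worth several units. On simulated data of this comparison, 61.2% of genes changed by 1 on the log2 scale and 88.2% of those changed by 2 were called. These were 60 and 90 genes, and 13 unchanged genes were called beside them.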

Other observations

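Genes outside the lists also differed between the genotypes under ethanol, and those given here were chosen after their values were seen. The phagocyte pore protein *Mpeg1* was 1007, 1342, 823, 1384 and 999 in WT mice and 3006, 2241, 3480 and 2949 in KO mice (log2 1.40, limma adjusted p = 0.00083). The high-affinity IgG receptor *Fcgr1* was 71 to 111 in WT and 227 to 418 in KO mice (log2 1.81). All KO values lay above all WT values in both genes.

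*Pkm*, a pyruvate kinase of other tissues than adult hepatocytes, was 646 to 1279 in WT and 1379 to 5064 in KO mice (log2 1.50, limma adjusted p = 0.016), but in pair-fed mice it was lower in KO than in WT (log2 −1.19), and the interaction passed (limma adjusted p = 0.0044). *Hk1* and *Hk2*, hexokinases of other tissues, rose by 1.13 and 1.22. The chromatin protein *Hmga1* was 356 to 671 in WT and 807 to 1539 in KO mice (log2 1.21).

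Among the genes that fell, *Paqr9* was 12567 to 17757 in WT and 7722 to 9582 in KO mice (log2 −0.79, limma adjusted p = 0.0041). *Leap2*, the liver-derived antagonist of the ghrelin receptor, was 2367 to 3836 in WT and 1115 to 2096 in KO mice (log2 −1.02). The peroxisomal oxidase *Hao2* fell by 1.73 on the log2 scale.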
